A study of Mus musculus with 16 samples.

Results

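The effect of sunitinib on gene expression in brown adipose tissue (BAT) was set against its effect in epididymal white adipose tissue (eWAT). For each gene, the mean of the 2 BAT sunitinib libraries minus the mean of the 2 BAT vehicle libraries gave the BAT effect. The same subtraction in eWAT gave the eWAT effect, and the quantity reported is the BAT effect minus the eWAT effect. It was computed for the 12661 genes, of 19048 symbols present in both tables, whose mean regularized log2 value was at least 3 in each tissue. The comparison used 8 of the 16 RNA sequencing libraries of the series: BAT sunitinib, BAT vehicle, eWAT sunitinib and eWAT vehicle, with 2 libraries each. All came from C57BL/6 mice aged 24 weeks that had received either sunitinib (sold as Sutent) or vehicle. The labels used here give no dose, route, length of treatment, sex or diet. The series states 8 mice, 4 per treatment, without tying a library to a mouse or a pool, so each p-value reflects the spread among these libraries alone, which may be technical.

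Sunitinib is a small-molecule inhibitor of receptor tyrosine kinases, among them the receptors for vascular endothelial growth factors (VEGF) and platelet-derived growth factors (PDGF), the stem cell factor receptor KIT and the CSF1 receptor. VEGF signalling maintains the capillaries of adipose tissue, PDGF receptor beta marks the pericytes that wrap them, and CSF1 receptor signalling maintains macrophages. Brown fat is a densely vascularized depot that burns lipid and glucose for heat through the uncoupling protein UCP1. Epididymal fat is a visceral depot that stores triglyceride and readily gathers macrophages.

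The deposited values were regularized log2 expression, which pulls the libraries of a gene towards its mean, most strongly at low counts. Differences of weakly expressed genes are therefore understated. BAT and eWAT had been normalized separately, so a level is read only within its own tissue, and the number of reads per library is unknown. The tissue labels were checked against markers. The brown fat gene Ucp1 lay between 16.46 and 16.93 in BAT and between 5.84 and 7.58 in eWAT, while the white fat hormone gene Lep lay between 7.33 and 9.19 in BAT and between 15.44 and 16.45 in eWAT.

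Several libraries stood apart for genes of other cell types. Skeletal muscle genes were high in BAT vehicle library 2 and low in BAT vehicle library 1: the creatine kinase gene Ckm had 9.96 and 9.30 in the BAT sunitinib libraries against 7.97 and 11.55 in the BAT vehicle libraries. The 30 endothelial genes described below were also lowest, on average, in BAT vehicle library 2 and highest in eWAT vehicle library 2 relative to each gene's tissue mean. Epithelial genes were higher in both eWAT sunitinib libraries, where the keratin gene Krt18 had 9.33 and 9.35 in the eWAT sunitinib libraries against 7.16 and 8.34 in the eWAT vehicle libraries, and lay between 0.54 and 0.56 in BAT. The epididymal duct gene Crisp1 reached 12.66 in eWAT sunitinib library 1 and at most 6.21 in the other eWAT libraries. Contractile smooth muscle genes were also highest in that library, and Ucp1 was highest, within eWAT, in eWAT sunitinib library 2.

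The difference between the sunitinib effects passed an adjusted p of 0.05 for 461 genes, 3.64% of those tested. It was positive for 379 (2.99%) and negative for 82 (0.648%). The counts of calls in gene lists below are to be read against these shares. At an unadjusted p below 0.05 there were 1698 positive and 1083 negative differences, where chance alone would give 633 in both directions together. Positive means that the sunitinib minus vehicle value was higher in BAT than in eWAT, which a gene can reach by being higher in BAT with sunitinib, lower in eWAT with sunitinib, or both. In the same fit no gene passed for the BAT effect alone (0% in each direction), where the smallest adjusted p was 0.109 and 1288 genes had positive and 974 negative effects at an unadjusted p below 0.05. The BAT count depended on the settings: 119 positive and 82 negative BAT effects passed when only genes with a mean of at least 8 in both tables were tested, 71 and 243 passed without BAT vehicle library 1, and 8 and 10 without BAT vehicle library 2. The eWAT effect alone passed for 246 genes that rose (1.94%) and 774 that fell (6.11%).

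The 379 positive differences came mainly from lower expression in sunitinib eWAT. Their median BAT effect was 0.09 and their median eWAT effect −0.56, and the eWAT effect was the larger one for 332 of them. Of the 379, 245 had a positive BAT effect beside a negative eWAT effect, and 134 had negative effects in both tissues. The 82 negative differences had a median BAT effect of −0.21 and a median eWAT effect of 0.36, and 72 of them had a negative BAT effect beside a positive eWAT effect. Both sunitinib libraries lay above both vehicle libraries in BAT and below both in eWAT for 203 of the 379 genes (53.6%), against 7.1% of all genes tested. The mirror order held for 61 of the 82 genes (74.4%), against 5.62% of all tested. The calls rest on the same values, so these shares describe the called genes and test nothing further. Across all genes tested, the median effects were near 0 in both tissues, and the 2 effects had a Pearson r of −0.01 over the 12661 genes, which are not independent replicates.

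**Figure D1:**
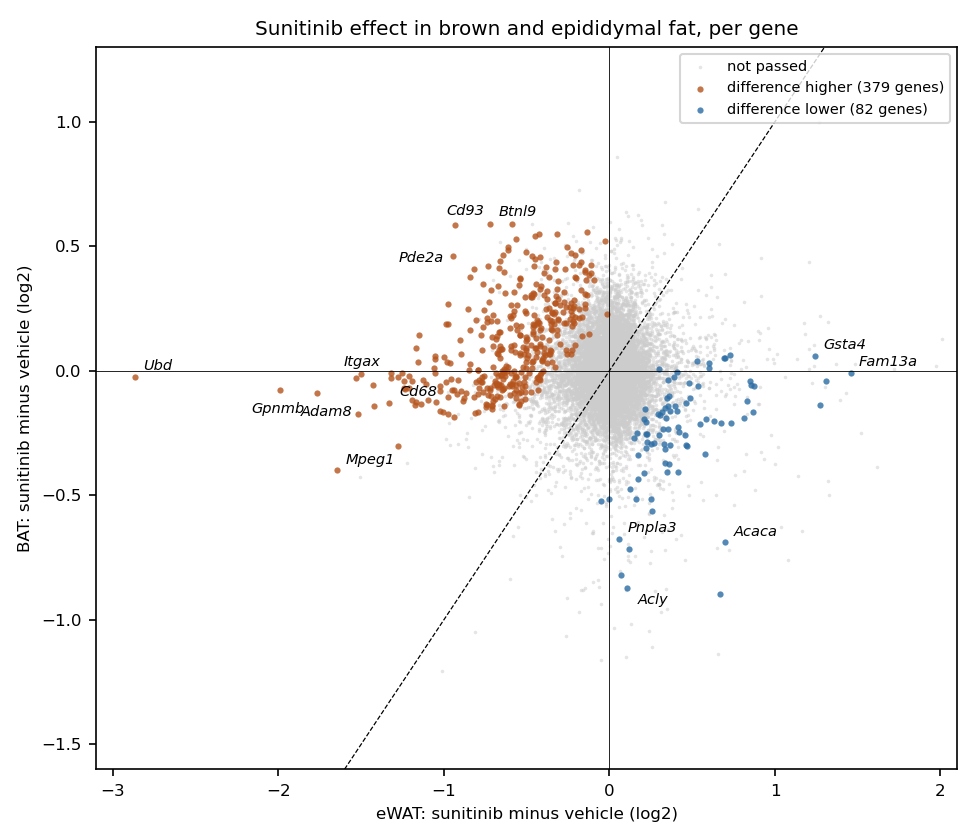
Sunitinib minus vehicle in BAT (vertical axis, log2) against the same in eWAT (horizontal axis, log2), 1 point per gene tested, with the 379 genes whose difference was higher in orange, the 82 whose difference was lower in blue and the rest in grey. The dashed line marks equal effects and 2 genes lie outside the range drawn; Gpnmb and Itgax sit far left near a BAT effect of 0, Cd93 and Btnl9 sit upper left, and Acaca lower right.

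Promoter sequences are shown for genes from 3 regions of that plot, since genes that move together may share promoter letters. Windows of 250 bases before to 50 after the transcription start were taken from RefSeq (GRCm38.p6, matched by symbol). Of the 379 genes 295 matched, with 372 windows, and of the 82 genes 56 matched, with 72 windows. The search covered 4 motifs on both strands. AGGAAGT, a core that factors of the ETS family bind, stood in 16.9% of the windows of the 379 genes, in 9.72% of those of the 82 genes, in 8.68% of the 11271 windows of all tested genes and in 9.35% of all 32851 windows. Its longer form GAGGAAGT, known from sites of the myeloid factor PU.1 and counted within AGGAAGT, stood in 6.72%, 4.17%, 3.03% and 3.2% of the windows in the same order of sets. The E-box CACGTG stood in 7.53%, 11.1%, 9.74% and 7.15%. The sterol-element motif TCACNCCAC stood in 1.61%, 0%, 1.13% and 1.24%, again in that order. Below, lower case gives the window 5′ to 3′ on the gene's strand and capitals mark AGGAAGT or GAGGAAGT on either strand, which reads ACTTCCT or ACTTCCTC where it lies on the other strand. Btnl9 is a vascular gene at chr11:49187040-49187339 on the minus strand with a match 149 bases before the start. Mmp12, the macrophage elastase, is at chr9:7344147-7344446 on the plus strand with a match 88 bases before the start (1 of its 2 windows). Myo1f, a myosin of leukocytes, is at chr17:33555457-33555756 on the plus strand with a match 4 bases after the start. Acly, the cytosolic enzyme that makes acetyl-CoA for lipid synthesis, is at chr11:100527951-100528250 on the minus strand and holds none of the 4 motifs in this window. A match is a run of letters, not a shown binding site. The 4 genes were picked without a rule, and a window holding AGGAAGT was taken first where a gene had several. They do not represent the shares above. AGGAAGT stands in each printed window of the 379 genes but in 16.9% of all windows of that set. It is absent from the Acly window but stands in 9.72% of the windows of the 82 genes.
Btnl9: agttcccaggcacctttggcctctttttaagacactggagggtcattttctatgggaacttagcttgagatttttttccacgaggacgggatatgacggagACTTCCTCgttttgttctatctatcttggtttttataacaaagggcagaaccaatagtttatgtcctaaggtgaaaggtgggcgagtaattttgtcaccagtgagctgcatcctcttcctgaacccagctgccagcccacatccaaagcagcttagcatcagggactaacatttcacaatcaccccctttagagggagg
Mmp12: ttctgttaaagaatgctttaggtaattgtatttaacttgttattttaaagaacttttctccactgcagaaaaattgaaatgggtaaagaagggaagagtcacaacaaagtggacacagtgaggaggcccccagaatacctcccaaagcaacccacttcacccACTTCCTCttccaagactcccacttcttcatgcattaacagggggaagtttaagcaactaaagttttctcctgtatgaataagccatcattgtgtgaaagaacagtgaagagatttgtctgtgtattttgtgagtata
Myo1f: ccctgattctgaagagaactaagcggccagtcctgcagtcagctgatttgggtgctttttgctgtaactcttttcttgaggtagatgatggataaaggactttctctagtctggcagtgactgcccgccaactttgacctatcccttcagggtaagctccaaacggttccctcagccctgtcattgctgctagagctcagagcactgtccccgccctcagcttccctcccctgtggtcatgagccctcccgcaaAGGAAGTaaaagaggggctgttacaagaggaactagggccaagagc
Acly: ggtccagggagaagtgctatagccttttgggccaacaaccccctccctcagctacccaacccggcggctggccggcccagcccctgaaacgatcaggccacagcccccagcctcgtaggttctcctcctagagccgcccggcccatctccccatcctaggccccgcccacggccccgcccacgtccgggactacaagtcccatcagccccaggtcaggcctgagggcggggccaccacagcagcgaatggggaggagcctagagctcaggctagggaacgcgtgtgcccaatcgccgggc

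Macrophage genes were among the largest differences, and most of the distance lay in eWAT. Of 24 core macrophage genes 21 were tested and 9 had a positive call (2.99% of all genes tested), none a negative one, with a median difference of 0.49 against 0.00 over all genes tested. Their median BAT effect was −0.10, and 19 of the 21 BAT effects were negative. Both BAT sunitinib libraries lay below both vehicle libraries for 10 of the 21, against 24.3% of all genes tested. The median eWAT effect was −0.68, and 20 of the 21 eWAT effects were negative. Of the 21, 18 passed as lower in eWAT, against 6.11% of all genes tested. Cd68, a lysosomal glycoprotein of macrophages, had 6.06 and 6.04 in the BAT sunitinib libraries against 6.06 and 6.06 in the BAT vehicle libraries, and 10.09 and 9.88 in the eWAT sunitinib libraries against 11.26 and 11.35 in the eWAT vehicle libraries. The BAT libraries were nearly level while both eWAT sunitinib libraries lay well below both vehicle libraries. The difference was 1.31 ± 0.11 (adjusted p = 0.003), from a BAT effect of −0.01 ± 0.08 and an eWAT effect of −1.32 ± 0.08. Mpeg1, which encodes the pore-forming protein perforin-2, was below vehicle in both tissues but by unequal amounts: it had 6.36 and 6.44 in the BAT sunitinib libraries against 6.81 and 6.79 in the BAT vehicle libraries, and 10.08 and 10.26 in the eWAT sunitinib libraries against 11.80 and 11.84 in the eWAT vehicle libraries, a difference of 1.25 ± 0.10 (adjusted p = 0.00294). Lgals3, the lectin galectin-3, differed by 1.17 ± 0.10, Tyrobp, an adaptor of myeloid receptors, by 1.05 ± 0.11, and Laptm5, a lysosomal protein of blood cells, by 0.94 ± 0.10. In bulk tissue, fewer cells of a type and less RNA per cell cannot be told apart.

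The same held for genes that mark lipid-laden macrophages of obese fat. Of 20, 17 were tested, 8 had a positive call, against 2.99% of all genes tested, and none a negative one. The medians were 0.57 for the difference, −0.05 for the BAT effect and −0.48 for the eWAT effect. Gpnmb, a membrane glycoprotein of lipid-loaded macrophages, had 5.63 and 5.79 in the BAT sunitinib libraries against 5.69 and 5.89 in the BAT vehicle libraries, and 10.64 and 10.20 in the eWAT sunitinib libraries against 12.45 and 12.37 in the eWAT vehicle libraries. Its difference was 1.91 ± 0.20 (adjusted p = 0.00495). Itgax encodes the integrin CD11c and had 3.46 and 3.53 in the BAT sunitinib libraries against 3.52 and 3.53 in the BAT vehicle libraries, and 8.74 and 8.58 in the eWAT sunitinib libraries against 10.14 and 10.24 in the eWAT vehicle libraries, a difference of 1.498 ± 0.10 (adjusted p = 0.00254) with the BAT values close to the bottom of the range tested. Lipa, the lysosomal lipase that splits cholesteryl esters and triglycerides, was expressed well above that bottom in BAT. It had 11.13 and 11.19 in the BAT sunitinib libraries against 11.20 and 11.05 in the BAT vehicle libraries, and 10.57 and 10.60 in the eWAT sunitinib libraries against 11.67 and 11.82 in the eWAT vehicle libraries, and its difference of 1.19 ± 0.11 (adjusted p = 0.00409) again came from eWAT. Mmp12 differed by 1.35 ± 0.11 and the beta-glucan receptor gene Clec7a by 0.94 ± 0.08.

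Low BAT levels bear on these values and on some of those given below. Of the 379 genes, 109 (28.8%) had a BAT mean under 5, against 18.6% of all genes tested, and shrinkage of low counts leaves such genes little room to differ in BAT. Trem2, a receptor of lipid-laden macrophages, had a BAT mean of 2.997 and fell just outside the filter, while Spp1 with 3.06 fell just inside. Trem2 values were 2.95 and 2.98 in the BAT sunitinib libraries against 3.02 and 3.04 in the BAT vehicle libraries, and 8.75 and 8.54 in the eWAT sunitinib libraries against 10.24 and 10.41 in the eWAT vehicle libraries.

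Other large positive differences also sat in leukocyte or stress genes. Ubd, a modifier related to ubiquitin that inflammatory cytokines switch on, had 3.25 and 3.23 in the BAT sunitinib libraries against 3.18 and 3.34 in the BAT vehicle libraries, and 8.36 and 9.18 in the eWAT sunitinib libraries against 11.71 and 11.55 in the eWAT vehicle libraries. This was the largest difference named, 2.84 ± 0.32 (adjusted p = 0.00626), with the BAT values close to the bottom of the range tested. Adam8, a leukocyte metalloprotease, differed by 1.67 ± 0.12, Slc37a2, a sugar-phosphate carrier of macrophages, by 1.49 ± 0.10, Myo1f by 1.37 ± 0.11 and Lat2, an adaptor of immune receptors, by 1.29 ± 0.12. Atf3, a transcription factor induced by stress, differed by 1.28 ± 0.12. For these genes the BAT effect lay between −0.14 and −0.01. Irf8, a transcription factor of monocytes and dendritic cells, and Slc15a3, a lysosomal peptide transporter, had BAT effects above 0. Irf8 had 5.46 and 5.36 in the BAT sunitinib libraries against 5.26 and 5.28 in the BAT vehicle libraries, and 8.08 and 8.19 in the eWAT sunitinib libraries against 9.17 and 9.40 in the eWAT vehicle libraries, so the 2 treatments did not overlap in either tissue and stood in opposite orders. Its difference was 1.29 ± 0.13 (adjusted p = 0.00427), and that of Slc15a3 was 1.26 ± 0.10 (adjusted p = 0.00294).

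Dendritic cell and MHC class II genes had 12 of 16 members tested and 4 positive calls, against 2.99% of all genes tested. The medians were 0.64 for the difference, −0.15 for the BAT effect and −0.94 for the eWAT effect. H2-DMb1, which helps load peptides on MHC class II, differed by 1.01 ± 0.14, the activation marker Cd83 by 0.80 ± 0.13 and Clec9a, a receptor of cross-presenting dendritic cells, by 0.45 ± 0.08. The BAT values of H2-DMb1 (3.82 to 3.97) and Clec9a (3.66 to 3.76) were close to the bottom of the range tested, and those of Cd83 lay between 4.41 and 4.71. H2-Eb1, a class II chain whose relatives can share its reads, had a difference of 0.76 ± 0.18 that did not pass (adjusted p = 0.067). Of 22 chemokine genes 13 were tested and 1 passed, the receptor gene Cxcr4 with 0.51 ± 0.08. Its BAT values, 3.57 to 3.72, were also close to that bottom. Of 12 neutrophil genes 6 were tested and none passed, and of 20 lymphocyte genes 1 was tested, Cd79a, with a difference of −0.20 ± 0.06 that did not pass. Of 22 interferon-response genes 21 were tested and 2 passed, the antiviral genes Rsad2 with 0.78 ± 0.16 and Oasl1 with 0.31 ± 0.06, with a median difference of 0.19.

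Lysosome and cell division genes followed the macrophage pattern. Of 24 lysosomal and vacuolar ATPase genes 22 were tested and 8 had a positive call, against 2.99% of all genes tested. The medians were 0.41 for the difference, −0.01 in BAT and −0.46 in eWAT. All 22 eWAT effects were negative and 14 of them passed, against 6.11% of all genes tested. Ctsk, a collagen-degrading cathepsin, had 5.68 and 5.61 in the BAT sunitinib libraries against 5.55 and 5.67 in the BAT vehicle libraries, and 9.44 and 9.46 in the eWAT sunitinib libraries against 10.39 and 10.48 in the eWAT vehicle libraries, a difference of 1.02 ± 0.10 (adjusted p = 0.00426). Ctss, the cathepsin that trims the class II invariant chain, differed by 0.97 ± 0.14 and Gusb, the beta-glucuronidase, by 0.65 ± 0.09. Ctsz, another cathepsin, stood in opposite orders in the 2 tissues, with a BAT effect of 0.48 ± 0.12 and an eWAT effect of −0.61 ± 0.12, a difference of 1.10 ± 0.17 (adjusted p = 0.0162). Of 24 proliferation genes 17 were tested, and all 17 differences were positive with a median of 0.42. Of the 17, 7 passed, against 2.99% of all genes tested. All 17 eWAT effects were negative and 14 of them passed, against 6.11% of all genes tested. Top2a, the topoisomerase of dividing cells, had 4.20 and 4.20 in the BAT sunitinib libraries against 4.36 and 4.37 in the BAT vehicle libraries, and 7.13 and 7.47 in the eWAT sunitinib libraries against 8.33 and 8.32 in the eWAT vehicle libraries, a difference of 0.86 ± 0.14 (adjusted p = 0.0221). The spindle gene Tpx2 differed by 0.49 ± 0.06, the cyclin gene Ccna2 by 0.45 ± 0.07, and the replication helicase genes Mcm5 and Mcm3 by 0.52 ± 0.08 and 0.52 ± 0.08.

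Many calls were lost when a single library was left out. Each omission also took the spread within that pair out of the fit and lowered the residual degrees of freedom from 4 to 3. A call could therefore end with little change in its difference, here and in the omissions below, and these parts were not separated. The SD of replicate differences was smallest for BAT sunitinib (0.118), against 0.265 for BAT vehicle, 0.203 for eWAT sunitinib and 0.139 for eWAT vehicle. Among the 84 genes that the naming rule gave and that passed, 21 passed without each of the 8 libraries in turn and 63 lost the call without at least 1, none with a change of sign. Cd68, Mpeg1, Lgals3, Tyrobp, Laptm5, Gpnmb, Itgax, Lipa, Mmp12, Clec7a, Ubd, Adam8, Slc37a2, Myo1f, Lat2, Atf3, Irf8, Slc15a3 and Ctsk were among the 21. H2-DMb1, Cd83, Clec9a, Cxcr4, Ctss, Gusb, Ctsz, Top2a, Tpx2, Ccna2, Mcm5 and Mcm3 lost it without BAT sunitinib library 1 and also without library 2, with differences between 0.39 and 1.29 over all 8 omissions. Some of them also lost it without an eWAT vehicle library or BAT vehicle library 2, and Clec9a also without eWAT sunitinib library 2. Rsad2 and Oasl1 lost it without 6 and 7 of the 8 libraries (adjusted p up to 0.158). A fit over all 16 libraries, which shares 1 estimate of the spread among the 4 tissues, tested 67 of the 84 genes and ended 45 of these calls with unchanged signs. Among the 21, it ended those of Laptm5 (adjusted p = 0.57), Irf8 (0.451), Lat2 (0.267), Mpeg1 (0.226), Slc15a3 (0.161), Myo1f (0.131), Clec7a (0.0709) and Atf3 (0.0525), while Cd68, Lgals3, Tyrobp, Lipa, Slc37a2, Cd93 and Pde2a passed, and Gpnmb, Itgax, Mmp12, Ubd, Adam8 and Ctsk were not tested there. Of the others described here it ended those of H2-DMb1, Cd83, Clec9a, Rsad2, Oasl1, Ctss, Mcm5, Mcm3, Top2a, Nos3, Gpihbp1, Kcne3, Pdgfb, Rgs5, Col6a1, Col6a3, Col12a1, Col16a1, Sparc, Col4a1, Acly, Pnpla3, Dhcr7, Ebp, Fam13a, Gsta4, Gsta3, Acsm3, Chdh, Erbb3, Hook1, Pde1a, Hlf, F3 and Peg3.

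**Figure D2:**
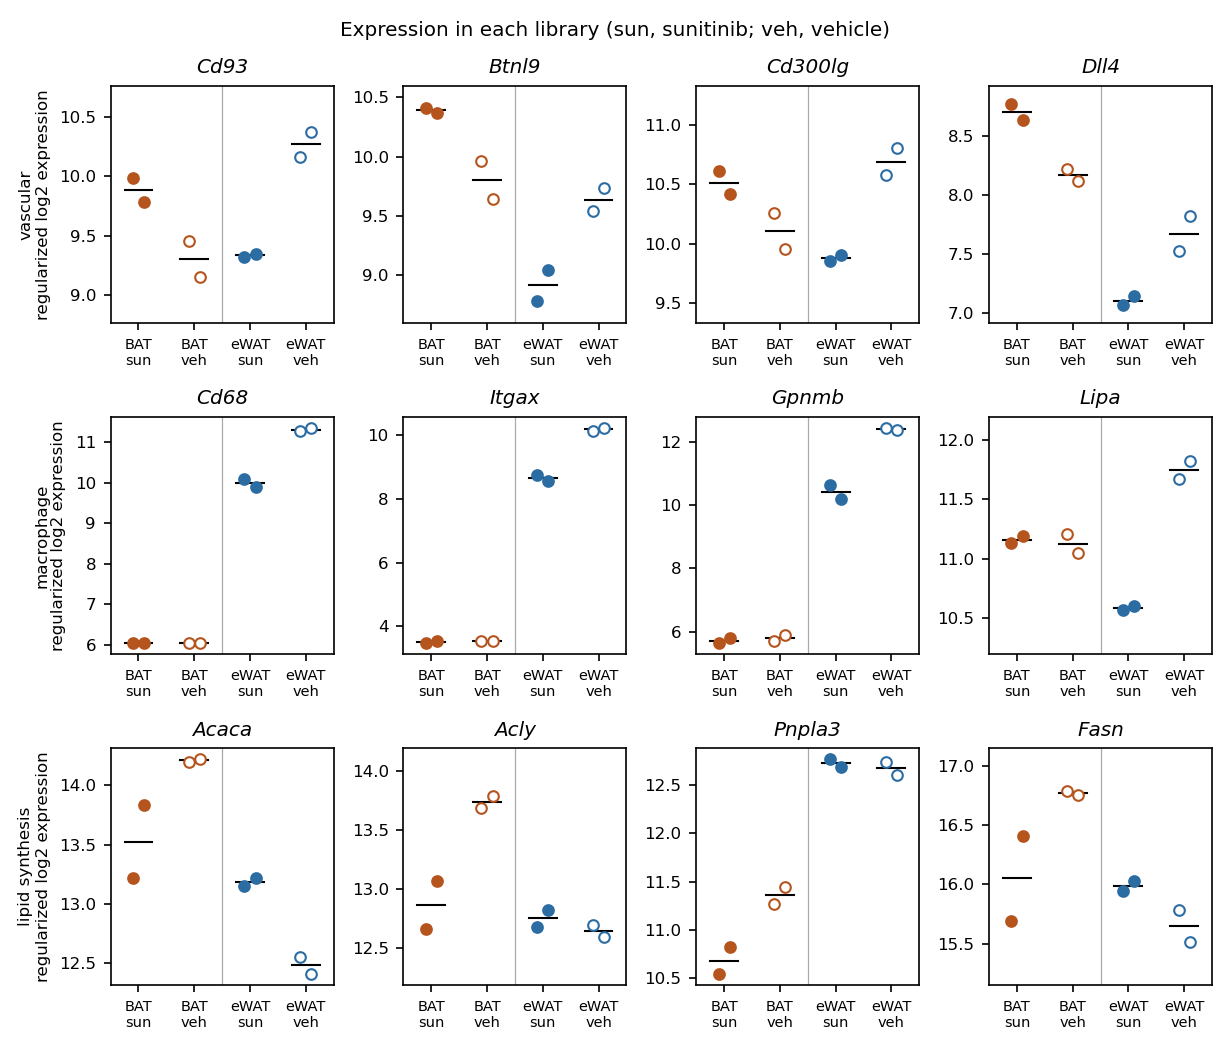
Regularized log2 expression of 12 genes in each library, with points for libraries and bars for group means; filled points are sunitinib, open points vehicle, orange BAT and blue eWAT, and vertical scales differ between panels. Vascular genes (top row) run in opposite orders in the 2 tissues. The macrophage genes drawn (middle row) are nearly level in BAT and lower with sunitinib in eWAT. Acaca (bottom row) is lower with sunitinib in BAT and higher in eWAT.

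Vascular genes differed in another way, with values above vehicle in BAT and below vehicle in eWAT. All 30 endothelial genes on the list were tested. All 30 had a positive BAT effect, with both sunitinib libraries above both vehicle libraries for 27 of them (26.5% of all genes tested), and 28 had a negative eWAT effect, with the mirror order for 22 (27.8% of all tested). The medians were 0.65 for the difference, 0.34 for the BAT effect and −0.33 for the eWAT effect. The difference passed for 5 members, all positive, against 2.99% of all genes tested. Cd93, a lectin-like receptor of endothelial cells that also occurs on myeloid cells, had 9.99 and 9.79 in the BAT sunitinib libraries against 9.46 and 9.15 in the BAT vehicle libraries, and 9.32 and 9.35 in the eWAT sunitinib libraries against 10.17 and 10.37 in the eWAT vehicle libraries. The 2 treatments did not overlap in either tissue and stood in opposite orders, and the difference was 1.52 ± 0.17 (adjusted p = 0.00626), from a BAT effect of 0.58 ± 0.12 and an eWAT effect of −0.94 ± 0.12.

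Genes of capillary lipid handling were among the 5. Gpihbp1, which carries lipoprotein lipase across the capillary wall, had 10.83 and 10.53 in the BAT sunitinib libraries against 10.35 and 10.28 in the BAT vehicle libraries, and 10.00 and 9.99 in the eWAT sunitinib libraries against 10.41 and 10.67 in the eWAT vehicle libraries, a difference of 0.91 ± 0.16 (adjusted p = 0.0274). Cd300lg, a capillary endothelial receptor, had 10.61 and 10.42 in the BAT sunitinib libraries against 10.26 and 9.96 in the BAT vehicle libraries, and 9.85 and 9.90 in the eWAT sunitinib libraries against 10.58 and 10.81 in the eWAT vehicle libraries, a difference of 1.22 ± 0.17 (adjusted p = 0.0133). Both genes were above vehicle in BAT and below vehicle in eWAT in every library. Nos3, the endothelial nitric oxide synthase, differed by 0.62 ± 0.10, and Aqp7, a glycerol channel of adipocytes and capillaries that is also on the adipocyte list, by 0.51 ± 0.09. The defining endothelial genes did not pass: Cdh5, the vascular cadherin, differed by 1.06 ± 0.26 (adjusted p = 0.0701), Tie1 by 1.06 ± 0.25 (adjusted p = 0.062) and Pecam1 by 0.81 ± 0.24 (adjusted p = 0.105). Pde2a, a cyclic nucleotide phosphodiesterase, and Btnl9, a butyrophilin-like gene expressed in capillaries, were named for the size of their difference rather than from the list. Pde2a had 9.80 and 9.72 in the BAT sunitinib libraries against 9.46 and 9.14 in the BAT vehicle libraries, and 10.70 and 10.57 in the eWAT sunitinib libraries against 11.50 and 11.66 in the eWAT vehicle libraries, a difference of 1.41 ± 0.16 (adjusted p = 0.00644). Btnl9 had 10.41 and 10.37 in the BAT sunitinib libraries against 9.96 and 9.64 in the BAT vehicle libraries, and 8.78 and 9.04 in the eWAT sunitinib libraries against 9.54 and 9.73 in the eWAT vehicle libraries, a difference of 1.31 ± 0.18 (adjusted p = 0.0128).

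Tip-cell genes, which mark sprouting endothelium, had 13 of 14 members tested and 7 positive calls, against 2.99% of all genes tested. The medians were 0.51 for the difference, 0.27 for the BAT effect and −0.21 for the eWAT effect. Among the 7 were Nid2, also counted as a basement membrane gene, and Cxcr4, also counted as a chemokine gene. Cxcr4 was below vehicle in both tissues, with a BAT effect of −0.10 and an eWAT effect of −0.60. Dll4, the Notch ligand of tip cells, had 8.77 and 8.63 in the BAT sunitinib libraries against 8.22 and 8.12 in the BAT vehicle libraries, and 7.07 and 7.15 in the eWAT sunitinib libraries against 7.52 and 7.82 in the eWAT vehicle libraries. Sunitinib libraries were all above vehicle in BAT and all below it in eWAT, with a difference of 1.09 ± 0.15 (adjusted p = 0.0117). Plaur, the urokinase receptor, differed by 0.89 ± 0.11, Apln, the secreted ligand apelin, by 0.51 ± 0.10, Kcne3, a potassium channel subunit, by 0.27 ± 0.05, and Pdgfb, the ligand that draws pericytes to sprouts, by 0.86 ± 0.16.

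**Figure D3:**
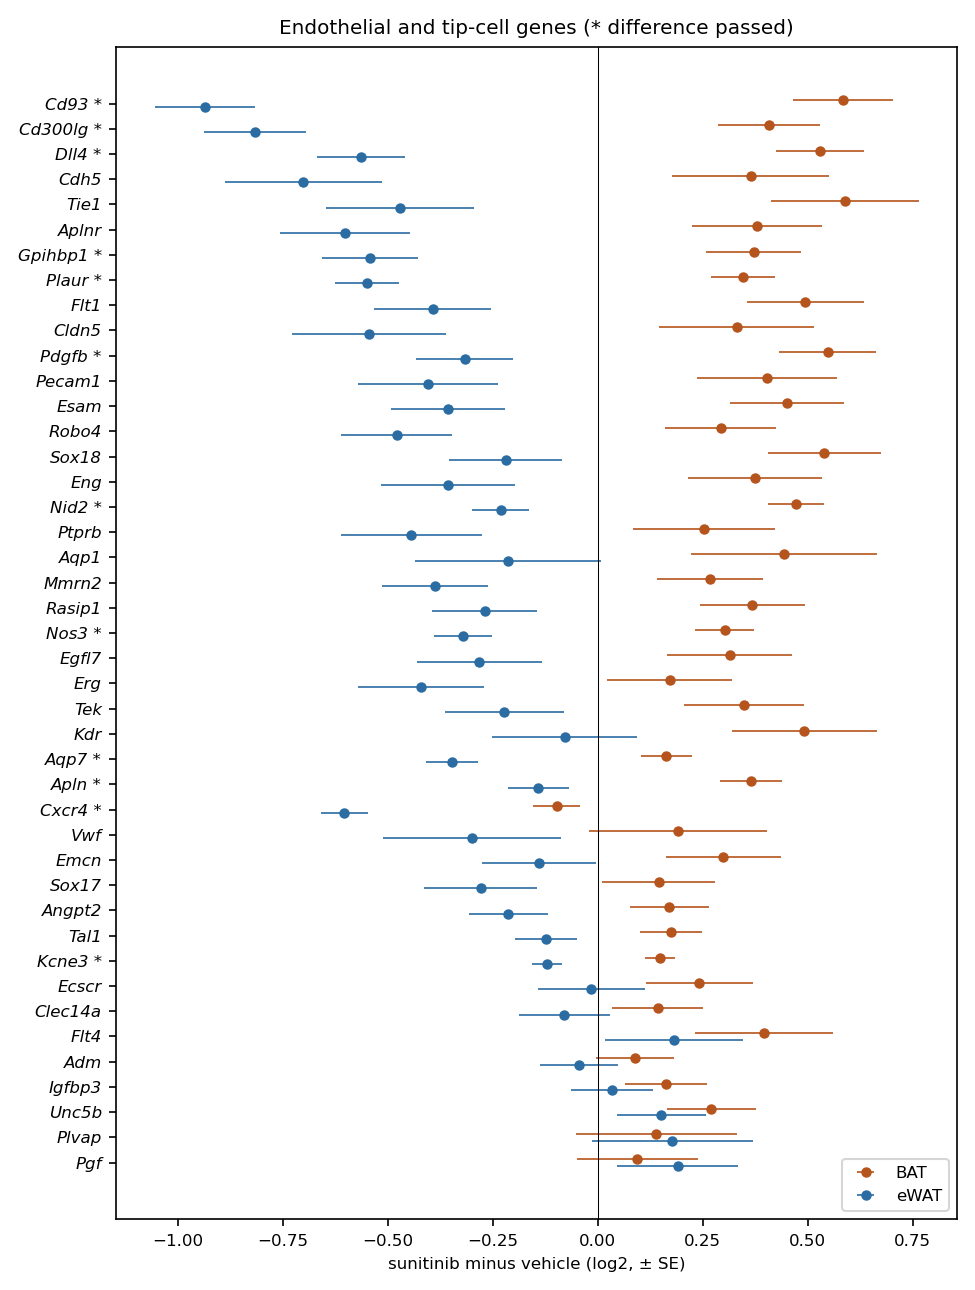
Sunitinib minus vehicle (log2, ± SE from the fit, 2 against 2 libraries) for the endothelial and tip-cell genes tested, with BAT in orange and eWAT in blue, ordered by the difference; an asterisk marks a difference that passed. Most genes lie right of 0 in BAT and left of 0 in eWAT, with Cd93 at 0.58 and −0.94 at the top, and Flt4, Unc5b, Plvap and Pgf are among those positive in both.

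The vascular values depended on the vehicle libraries. Without BAT vehicle library 2 the median difference of the endothelial list was 0.53 with 3 calls, and without eWAT vehicle library 2 it was 0.49 with 1 call. Leaving out both gave 0.34 with 1 call, and 29 of 30 BAT effects were then positive and 22 of 30 eWAT effects negative. Without BAT vehicle library 1 there were 15 calls and a median of 0.79, and without eWAT vehicle library 1 there were 9 calls and a median of 0.85. BAT vehicle library 2 also had the highest muscle gene values in BAT, and the part of that in the BAT values was not tested. Cd93 and Pde2a passed without each library in turn, with differences of at least 1.37 and 1.24. Dll4 and Plaur lost the call without BAT sunitinib library 1 (adjusted p = 0.0698 and 0.0531), Cd300lg without that library or eWAT vehicle library 2 (0.073 and 0.0552), and Btnl9 without either BAT sunitinib library or eWAT vehicle library 2 (0.0747, 0.0605 and 0.0578). Nos3, Gpihbp1, Aqp7, Apln, Kcne3 and Pdgfb lost it without 4 to 7 of the 8 libraries (adjusted p up to 0.162).

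The kinases that sunitinib targets were themselves measured. Of 9, 8 were tested, with a median difference of 0.32, and 1 passed. Pdgfrb, the PDGF receptor of pericytes, had 8.90 and 8.86 in the BAT sunitinib libraries against 8.63 and 8.40 in the BAT vehicle libraries, and 9.37 and 9.26 in the eWAT sunitinib libraries against 9.66 and 10.06 in the eWAT vehicle libraries, above vehicle in BAT and below it in eWAT, with a difference of 0.91 ± 0.18 (adjusted p = 0.042). That call was lost without 6 of the 8 libraries, all but BAT vehicle library 1 and eWAT vehicle library 1 (adjusted p from 0.0628 to 0.163, differences from 0.71 to 0.96). Flt1, the VEGF receptor that also acts as a decoy, had 11.33 and 11.34 in the BAT sunitinib libraries against 11.06 and 10.61 in the BAT vehicle libraries, and 8.89 and 8.87 in the eWAT sunitinib libraries against 9.15 and 9.39 in the eWAT vehicle libraries, the same orders, and a difference of 0.89 ± 0.20 (adjusted p = 0.0538) that did not pass. Kdr, the main signalling receptor for VEGF-A, differed by 0.57 ± 0.24 (adjusted p = 0.226), with BAT values above vehicle and overlapping eWAT values. Flt4, the receptor for VEGF-C, differed by 0.21 ± 0.23 (adjusted p = 0.62) and had positive effects in both tissues.

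The other target kinases gave no call. Csf1r, the macrophage growth factor receptor, had 6.94 and 7.09 in the BAT sunitinib libraries against 7.25 and 7.56 in the BAT vehicle libraries, and 10.99 and 10.88 in the eWAT sunitinib libraries against 11.71 and 11.79 in the eWAT vehicle libraries, below vehicle in both tissues, and fell in eWAT (adjusted p = 0.00473), while its difference of 0.42 ± 0.15 did not pass (adjusted p = 0.164). Pdgfra, a receptor of adipocyte progenitors, differed by −0.06 ± 0.12 and its treatments overlapped in both tissues. Kit differed by −0.19 ± 0.20 and Ret, the receptor for GDNF ligands, by 0.04 ± 0.14. Flt3, a receptor of dendritic cell and blood progenitors, was below the filter in BAT and had 0.58 and 0.57 in the BAT sunitinib libraries against 0.60 and 0.60 in the BAT vehicle libraries, and 5.06 and 5.02 in the eWAT sunitinib libraries against 5.42 and 5.37 in the eWAT vehicle libraries. Of 16 ligands and coreceptors of these kinases 14 were tested and 1 passed, Pdgfb. Vegfa, the main VEGF ligand, had a BAT effect of 0.14, an eWAT effect of 0.38 and a difference of −0.23 ± 0.14 (adjusted p = 0.362). Csf1, the ligand of CSF1R, differed by −0.21 ± 0.08.

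Pericyte and smooth muscle genes were split. Of 14 tested, Pdgfrb and Rgs5, a regulator of G-protein signalling in pericytes, passed, and Rgs5 had 12.40 and 12.30 in the BAT sunitinib libraries against 12.41 and 12.26 in the BAT vehicle libraries, and 10.28 and 10.32 in the eWAT sunitinib libraries against 10.87 and 11.14 in the eWAT vehicle libraries, level in BAT and lower in eWAT, with a difference of 0.72 ± 0.14 (adjusted p = 0.0405). It lost the call without 6 of the 8 libraries, again all but BAT vehicle library 1 and eWAT vehicle library 1 (adjusted p up to 0.162). Contractile genes had negative differences that did not pass, among them Cnn1 with −2.78 and Myh11 with −1.88. Myh11 had 13.61 and 9.93 in the eWAT sunitinib libraries against 9.41 and 10.11 in the eWAT vehicle libraries, so that 1 library carried the eWAT value. The median of the list was −0.15, with 7 positive and 7 negative differences, and it was 0.20 without eWAT sunitinib library 1. Without eWAT sunitinib library 2 it was −0.38 with 6 negative calls.

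Collagen genes also had positive differences, with the distance mainly from eWAT, while other matrix genes were mixed. All 13 fibrillar and matrix collagen genes were tested and 4 passed, all positive, against 2.99% of all genes tested. The medians were 0.50 for the difference, −0.03 for the BAT effect and −0.49 for the eWAT effect. All 13 eWAT effects were negative and 9 of them passed, against 6.11% of all genes tested. Col6a1, a chain of the microfibril collagen VI, had 9.29 and 9.46 in the BAT sunitinib libraries against 9.06 and 9.24 in the BAT vehicle libraries, and 13.50 and 13.61 in the eWAT sunitinib libraries against 14.44 and 14.07 in the eWAT vehicle libraries, a difference of 0.93 ± 0.18 (adjusted p = 0.0395). Col6a3, another chain of collagen VI, differed by 1.004 ± 0.21, Col12a1 by 0.78 ± 0.16 and Col16a1 by 0.53 ± 0.11. Of 24 matrix glycoprotein genes 23 were tested, and 16 differences were positive and 7 negative with a median of 0.23. Of the 23, 3 passed, all positive, against 2.99% of all genes tested. Tnc, the matrix glycoprotein tenascin-C, had 6.85 and 6.70 in the BAT sunitinib libraries against 6.23 and 6.33 in the BAT vehicle libraries, and 7.68 and 7.59 in the eWAT sunitinib libraries against 8.09 and 8.41 in the eWAT vehicle libraries, in opposite orders in the 2 tissues, with a difference of 1.11 ± 0.16 (adjusted p = 0.0133). Sparc, a collagen-binding glycoprotein, differed by 0.68 ± 0.13 and Postn, periostin, by 0.81 ± 0.17. The lowest value was that of Fmod, the collagen-binding proteoglycan fibromodulin, with −0.67 ± 0.16 (adjusted p = 0.0681).

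Basement membrane genes, whose products underlie capillaries and coat adipocytes, had 4 positive calls among 14 tested, against 2.99% of all genes tested. The medians were 0.28 for the difference, 0.19 for the BAT effect and −0.29 for the eWAT effect. Hspg2, which encodes perlecan, had 11.70 and 11.80 in the BAT sunitinib libraries against 11.52 and 11.36 in the BAT vehicle libraries, and 13.88 and 13.93 in the eWAT sunitinib libraries against 14.48 and 14.47 in the eWAT vehicle libraries, a difference of 0.89 ± 0.11 (adjusted p = 0.00958). Nid2, nidogen-2, differed by 0.70 ± 0.09, and the collagen IV genes Col4a1 and Col4a2 by 0.74 ± 0.14 and 0.77 ± 0.14. All 4 stood above vehicle in BAT and below vehicle in eWAT. Tnc lost its call without BAT sunitinib library 1 (adjusted p = 0.0751), Hspg2 without BAT sunitinib library 2 (0.0509) and Nid2 without either of these or eWAT vehicle library 2 (up to 0.0597), while Col6a1, Col6a3, Col12a1, Col16a1, Sparc, Postn, Col4a1 and Col4a2 lost theirs without 5 to 8 of the 8 libraries (up to 0.176).

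Lipid synthesis genes had negative differences. Of 22 fatty acid and triglyceride synthesis genes 21 were tested and 17 differences were negative. Of the 21, 3 passed, all negative, against 0.648% of all genes tested. The medians were −0.66 for the difference, −0.24 for the BAT effect and 0.11 for the eWAT effect. Both BAT sunitinib libraries were below both vehicle libraries for 14 of the 21, against 24.3% of all genes tested. Acaca, acetyl-CoA carboxylase 1, which makes the malonyl-CoA that fatty acids are built from, had 13.22 and 13.83 in the BAT sunitinib libraries against 14.20 and 14.22 in the BAT vehicle libraries, and 13.15 and 13.22 in the eWAT sunitinib libraries against 12.56 and 12.41 in the eWAT vehicle libraries. Sunitinib libraries were below vehicle in BAT and above it in eWAT, and the difference was −1.39 ± 0.25 (adjusted p = 0.0289), from a BAT effect of −0.69 ± 0.18 and an eWAT effect of 0.70 ± 0.18. Acly, which supplies the acetyl-CoA, had 12.66 and 13.07 in the BAT sunitinib libraries against 13.69 and 13.79 in the BAT vehicle libraries, and 12.68 and 12.83 in the eWAT sunitinib libraries against 12.69 and 12.60 in the eWAT vehicle libraries. Here the eWAT libraries overlapped and the difference of −0.98 ± 0.19 (adjusted p = 0.0356) came from a BAT effect of −0.87 ± 0.13 (adjusted p = 0.109 for BAT alone). Pnpla3, a lipid droplet protein with lipase activity that insulin and feeding induce in liver, had 10.54 and 10.83 in the BAT sunitinib libraries against 11.27 and 11.44 in the BAT vehicle libraries, and 12.77 and 12.69 in the eWAT sunitinib libraries against 12.74 and 12.61 in the eWAT vehicle libraries, a difference of −0.73 ± 0.16 (adjusted p = 0.0475).

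Several neighbouring enzymes had differences of similar size that did not pass. Fasn, the fatty acid synthase, had 15.70 and 16.41 in the BAT sunitinib libraries against 16.79 and 16.75 in the BAT vehicle libraries, and 15.94 and 16.03 in the eWAT sunitinib libraries against 15.79 and 15.51 in the eWAT vehicle libraries, a difference of −1.06 ± 0.31 (adjusted p = 0.108). Scd1, the stearoyl-CoA desaturase, had 16.88 and 17.61 in the BAT sunitinib libraries against 17.98 and 17.95 in the BAT vehicle libraries, and 19.61 and 19.48 in the eWAT sunitinib libraries against 19.08 and 18.57 in the eWAT vehicle libraries, a difference of −1.44 ± 0.40 (adjusted p = 0.0896). Both lay below vehicle in BAT and above vehicle in eWAT, with the 2 BAT sunitinib libraries far apart. The desaturase gene Scd2 differed by −1.37 ± 0.33 (adjusted p = 0.0691), Thrsp, a lipogenic regulator, by −0.94 ± 0.22 (adjusted p = 0.0607), and the malic enzyme gene Me1 by −0.66 ± 0.18 (adjusted p = 0.0831). Fads2, a polyunsaturated fatty acid desaturase, had 5.69 and 5.73 in the BAT sunitinib libraries against 5.78 and 5.56 in the BAT vehicle libraries, and 10.24 and 9.55 in the eWAT sunitinib libraries against 8.08 and 8.62 in the eWAT vehicle libraries, level in BAT and higher in eWAT, with a difference of −1.504 ± 0.34 (adjusted p = 0.0553). Srebf1, the transcription factor of lipogenic genes, differed by −0.38 ± 0.15 (adjusted p = 0.196) and Mlxipl, the carbohydrate-response factor ChREBP, by −0.01 ± 0.08 (adjusted p = 0.971). The triglyceride enzymes Dgat1 and Dgat2 differed by 0.04 ± 0.11 and 0.22 ± 0.12.

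Of these calls, Acaca was lost without BAT vehicle library 2, either eWAT vehicle library or either eWAT sunitinib library (adjusted p from 0.0546 to 0.104, differences from −1.46 to −1.31). Acly was lost without these same libraries or without BAT sunitinib library 1 (0.053 to 0.114), and Pnpla3 without any library but BAT vehicle library 1 (0.0577 to 0.15). BAT sunitinib library 1 had the lowest BAT value of Acaca, Acly, Fasn and Scd1. Cholesterol genes held a few calls with a positive difference, although most of their effects were negative in both tissues. Of 24, 22 were tested and 3 passed, all positive, against 2.99% of all genes tested. Among the 3 were Dhcr7, the last enzyme of cholesterol synthesis, with 0.56 ± 0.11, and Ebp, a sterol isomerase, with 0.45 ± 0.09. The median of the list was 0.10. Of the 22, 17 had a negative eWAT effect, and 10 passed as lower in eWAT, against 6.11% of all genes tested. In BAT 17 of the 22 effects were also negative. Both BAT sunitinib libraries lay below both vehicle libraries for 11 of the 22, against 24.3% of all genes tested. The median effects were −0.13 in BAT and −0.22 in eWAT. The calls of Dhcr7 and Ebp were lost without 7 and 8 of the 8 libraries.

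The largest negative difference by the naming rule was that of Fam13a, a gene linked to body fat distribution in humans, which had 10.98 and 11.21 in the BAT sunitinib libraries against 11.15 and 11.06 in the BAT vehicle libraries, and 12.12 and 11.70 in the eWAT sunitinib libraries against 10.73 and 10.17 in the eWAT vehicle libraries. It was level in BAT and higher in eWAT, with a difference of −1.47 ± 0.28 (adjusted p = 0.0357). Gsta4, a glutathione transferase that detoxifies lipid aldehydes, had 9.58 and 9.68 in the BAT sunitinib libraries against 9.62 and 9.52 in the BAT vehicle libraries, and 9.10 and 8.70 in the eWAT sunitinib libraries against 7.70 and 7.62 in the eWAT vehicle libraries, a difference of −1.18 ± 0.17 (adjusted p = 0.0149). Acsm3, a mitochondrial medium-chain acyl-CoA synthetase, had 9.63 and 9.67 in the BAT sunitinib libraries against 9.87 and 9.76 in the BAT vehicle libraries, and 7.33 and 7.22 in the eWAT sunitinib libraries against 6.52 and 6.30 in the eWAT vehicle libraries, a difference of −1.03 ± 0.12 (adjusted p = 0.00751). Gsta3 differed by −1.004 ± 0.19, and since near-identical Gsta genes can share reads, both Gsta values are uncertain. Chdh, the choline dehydrogenase, differed by −0.94 ± 0.16 and Suox, the sulfite oxidase, by −0.88 ± 0.16. Pde1a, a calcium-dependent phosphodiesterase, differed by −0.83 ± 0.13.

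Erbb3, a receptor of neuregulins that was also named for the size of its difference, had 5.50 and 5.52 in the BAT sunitinib libraries against 5.58 and 5.57 in the BAT vehicle libraries, and 7.65 and 7.79 in the eWAT sunitinib libraries against 6.66 and 7.03 in the eWAT vehicle libraries, a difference of −0.94 ± 0.16 (adjusted p = 0.0267). Hook1, a microtubule adaptor, differed by −0.91 ± 0.13, Spock2, a proteoglycan, by −0.95 ± 0.15 and Mgat3, a glycosyltransferase, by −0.91 ± 0.19. Of 18 epithelial and epididymal duct genes only Spint2, a protease inhibitor, passed the filter, with 8.36 and 8.38 in the eWAT sunitinib libraries against 7.58 and 7.91 in the eWAT vehicle libraries. Its difference of −0.58 ± 0.14 did not pass (adjusted p = 0.069). Of the 18, 17 had eWAT values, and both sunitinib libraries lay above both vehicle libraries for 14 of them. That order held for 24.8% of all genes tested, a set that includes only Spint2 of these. The mean level of the 17 was 7.23 and 6.65 in the eWAT sunitinib libraries against 5.65 and 6.01 in the eWAT vehicle libraries, and their part in these differences was not tested.

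Among 13 clock genes tested Hlf, an output factor of the clock, passed with −0.75 ± 0.13, while the list had 8 negative and 5 positive differences with a median of −0.12. The period genes Per3 and Per1 differed by −0.42 ± 0.14 (adjusted p = 0.148) and 0.28 ± 0.14 (adjusted p = 0.294), Clock by −0.17 ± 0.11 and Tef, a relative of Hlf, by −0.16 ± 0.11, none of which passed. Fam13a, Gsta3, Acsm3, Gsta4, Erbb3, Hook1, Spock2, Mgat3, Chdh, Suox, Pde1a and Hlf each lost the call without 1 to 6 of the 8 libraries, with adjusted p up to 0.168. BAT sunitinib library 1 was among them for every one of these genes.

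Adipocyte and heat-producing genes gave few calls. All 20 adipocyte identity genes were tested and 1 passed, Aqp7, with a list median of 0.06. Adipoq, the adiponectin gene, differed by 0.13 ± 0.16 (adjusted p = 0.676), Pparg, the master regulator of adipocytes, by 0.08 ± 0.15 (adjusted p = 0.773) and Pck1, which makes glycerol for triglyceride, by −0.97 ± 0.31 (adjusted p = 0.124). Of 20 brown thermogenic genes 16 were tested and 1 passed, Kcnk3, a potassium channel of brown adipocytes, which had 12.65 and 12.67 in the BAT sunitinib libraries against 12.34 and 12.12 in the BAT vehicle libraries, and 9.68 and 9.77 in the eWAT sunitinib libraries against 10.03 and 10.07 in the eWAT vehicle libraries. Its order was above vehicle in BAT and below it in eWAT, with a difference of 0.76 ± 0.12 (adjusted p = 0.0169) that was lost without either BAT sunitinib library or either eWAT vehicle library (adjusted p from 0.0501 to 0.0815). Ucp1 had 16.93 and 16.80 in the BAT sunitinib libraries against 16.68 and 16.46 in the BAT vehicle libraries, and 5.97 and 7.58 in the eWAT sunitinib libraries against 5.88 and 5.84 in the eWAT vehicle libraries, a difference of −0.61 ± 0.59 (adjusted p = 0.575). Cidea, a lipid droplet protein of brown fat, differed by −0.27 ± 0.41 (adjusted p = 0.729), and in eWAT its value of 7.40 in sunitinib library 2 stood apart from 6.27 in library 1, as for Ucp1. The median of the list was −0.23, and 0.07 without that library.

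Lhx8, a transcription factor of brown precursors, had 4.48 and 4.44 in the BAT sunitinib libraries against 4.52 and 4.34 in the BAT vehicle libraries, and 1.144 and 1.15 in the eWAT sunitinib libraries against 1.15 and 1.16 in the eWAT vehicle libraries. Cpt1b, the muscle-type carnitine palmitoyltransferase, had 7.13 and 6.98 in the BAT sunitinib libraries against 6.94 and 6.998 in the BAT vehicle libraries, and 1.11 and 1.13 in the eWAT sunitinib libraries against 1.11 and 1.13 in the eWAT vehicle libraries. Zic1 had 5.45 and 5.42 in the BAT sunitinib libraries against 5.45 and 5.36 in the BAT vehicle libraries and was not used in eWAT, and the glycerol kinase gene Gk was matched in neither table, so these 4 brown fat genes were outside the filter. Ppargc1a, a coactivator that drives mitochondrial genes, was below vehicle in BAT and above it in eWAT, with a difference of −0.72 ± 0.17 (adjusted p = 0.0613) that did not pass.

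Respiratory chain genes showed near-equal median effects in the 2 tissues. None of 44 tested members passed, the median difference was −0.01, and the median effects were 0.18 in BAT and 0.15 in eWAT, with 38 positive BAT effects and 40 positive eWAT effects. Both BAT sunitinib libraries lay above both vehicle libraries for 30 of 44, and both eWAT sunitinib libraries did so for 33, against 26.5% and 24.8% of all genes tested. Ndufa8, a complex I subunit, had the smallest p of these with 0.38 ± 0.08 (adjusted p = 0.0529). The absence of a call does not show that the effects are equal. Fatty acid oxidation (24 tested), tricarboxylic acid cycle (19), glycolysis (18), lipolysis (16) and hypoxia-inducible genes (17) had no calls and medians between −0.11 and 0.13. Lep was below vehicle in both tissues, with 7.53 and 7.33 in the BAT sunitinib libraries against 8.09 and 9.19 in the BAT vehicle libraries, and 15.44 and 15.44 in the eWAT sunitinib libraries against 16.45 and 16.44 in the eWAT vehicle libraries, and its difference of −0.20 ± 0.41 (adjusted p = 0.807) did not pass. Mest and Peg3, linked to fat expansion, and Apln passed with 0.60 ± 0.10, 0.45 ± 0.09 and 0.51 ± 0.10, and Mest lost its call without 3, Peg3 without each of the 8 libraries (adjusted p up to 0.168).

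**Figure D4:**
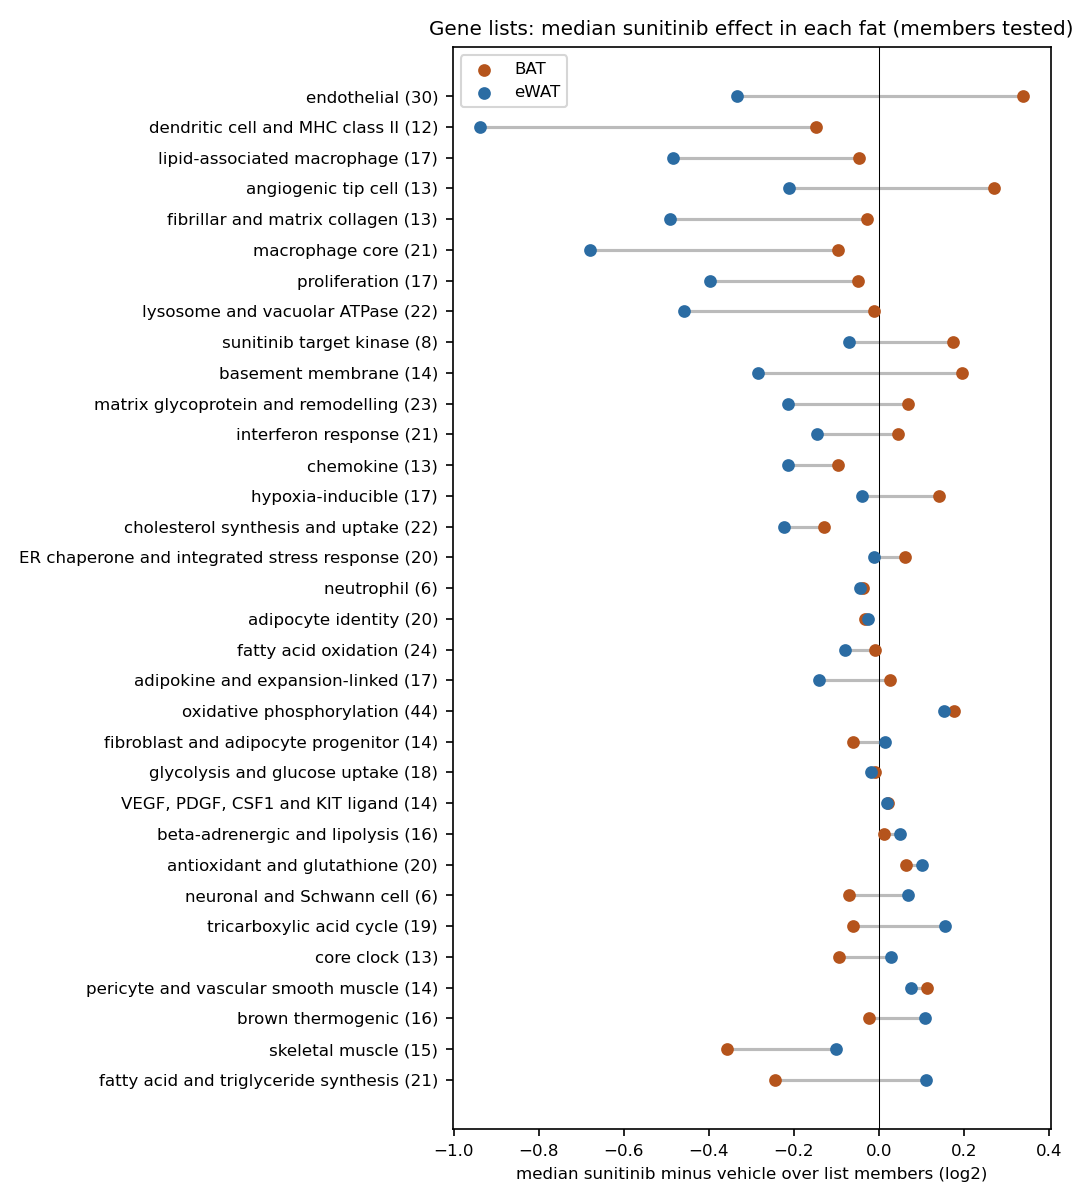
Median sunitinib minus vehicle value (log2) over the tested members of each gene list with at least 5, in BAT (orange) and eWAT (blue), ordered by the median difference; numbers in brackets are members tested. Endothelial genes lie at 0.34 in BAT and −0.33 in eWAT, macrophage core genes at −0.10 and −0.68, fatty acid and triglyceride synthesis genes at −0.24 and 0.11, and oxidative phosphorylation genes at 0.18 and 0.15.

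The remaining lists held few calls or none. Of 20 chaperone and stress-response genes Atf3 and Calr, a calcium-binding chaperone, passed, the second with 0.58 ± 0.11. Of 20 antioxidant genes Gsta4 and Gsta3 passed. Of 14 progenitor genes tested F3, the tissue factor gene, passed with −0.42 ± 0.08. Calr and F3 lost their calls without 7 of the 8 libraries (adjusted p up to 0.119). None of 15 skeletal muscle genes tested passed, with a median of −0.33; the mean level of the 16 listed muscle genes was 9.53 and 8.87 in the BAT sunitinib libraries, inside the range of 7.85 and 11.37 in the BAT vehicle libraries.

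Genes that stood in clearly opposite orders were counted with a limit of size chosen after their values were seen. A BAT effect of at least 0.3 with an eWAT effect of −0.3 or below was held by 74 of the genes tested, of which 45 were called, and the mirror by 64, of which 8 were called. Over all genes tested, the shares called were 2.99% and 0.648%. The limit and the calls rest on the same values, so these counts test nothing further. Besides those described, the 45 included S1pr1, the sphingosine-phosphate receptor of endothelium, with 0.98 ± 0.20 (adjusted p = 0.0449), Car4, a capillary carbonic anhydrase, with 1.08 ± 0.22 (adjusted p = 0.0434), Sema3g, a semaphorin of arterial endothelium, with 1.01 ± 0.17 (adjusted p = 0.0261), and Tgfb1, the growth factor TGF-beta 1, with 0.93 ± 0.14 (adjusted p = 0.0153). Cdkn1a, a cell-cycle inhibitor, had 10.47 and 10.21 in the BAT sunitinib libraries against 9.85 and 9.65 in the BAT vehicle libraries, and 10.52 and 10.55 in the eWAT sunitinib libraries against 11.26 and 10.99 in the eWAT vehicle libraries. All 4 BAT and all 4 eWAT libraries were ordered by treatment, and its difference was 1.18 ± 0.17 (adjusted p = 0.0149).

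Inguinal fat and liver, which the comparison did not use, give a description from other libraries of the series, each with 2 sunitinib and 2 vehicle libraries. In inguinal fat, 248 of the 379 genes with a positive difference had a negative sunitinib effect (65.4%, median −0.19), against 39 of the 81 measured genes with a negative difference (48.1%, median 0.01) and 49.7% of all genes tested (median 0.00). In liver, 224 of 332 (67.5%, median −0.03), 44 of 67 (65.7%, median −0.02) and 47.8% of all tested were negative. The sets hold different genes from the same fit and no test was made of these shares. Single genes varied: Ubd had an inguinal effect of −2.06, Itgax −0.71, Cd93 −0.75, Irf8 0.50, Fam13a 1.67, Acaca 0.50 and Acly −0.16.

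**Figure D5:**
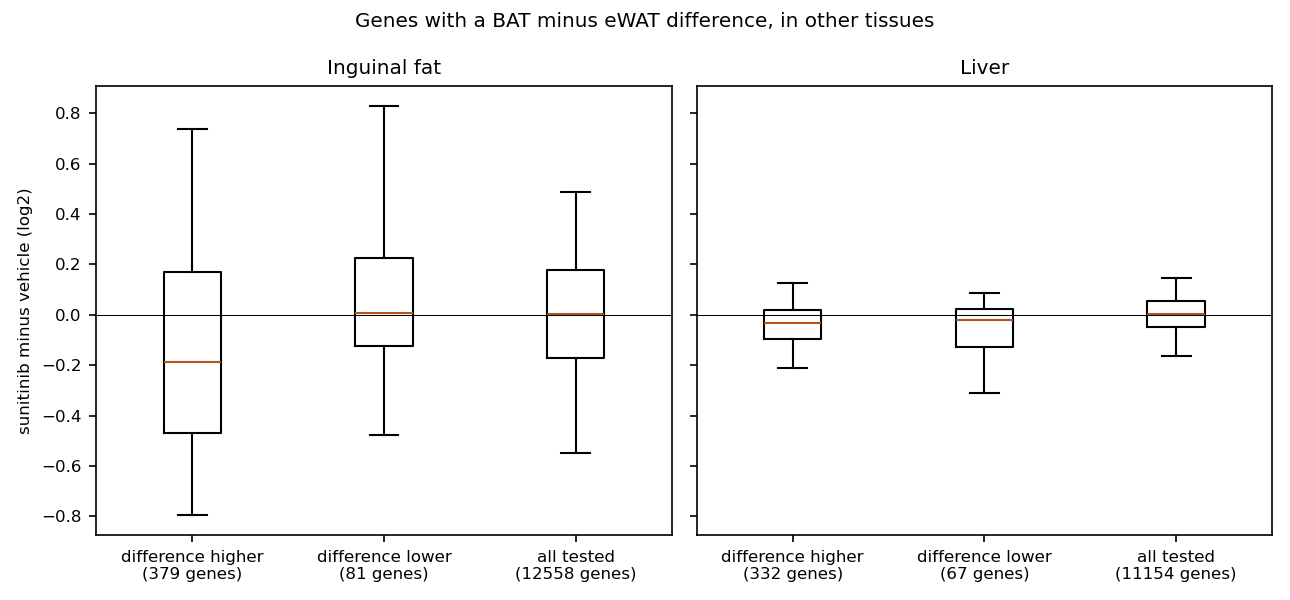
Sunitinib minus vehicle (log2) in inguinal fat and liver for the 379 genes with a higher and the 82 with a lower BAT minus eWAT difference, as far as measured, and for all genes tested; boxes span the quartiles with the median in orange and whiskers the 5th to 95th percentiles. The genes with a higher difference have a median of −0.19 in inguinal fat and −0.03 in liver.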

How the data were processed

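The authors deposited regularized log2 values (rlog) per gene and library, 1 table per tissue, per the labels. The tools listed, per the submitters' processing notes, are TopHat2 2.1.1, DESeq2, bedtools and bcl2fastq 2.17.1.14, with build mm9. What each did, the annotation, how reads were counted and whether strand was used are not given in the sources used, so overlapping antisense genes cannot be told apart. Depth is unknown, so no counting interval is given. The BAT and eWAT tables were joined by symbol; 18 symbols turned into dates among the genes tested were not named. A mean of at least 3 in both tables was required. R 4.3.3 with limma 3.58.1 fitted the 8 libraries together, with 1 mean per group, an intensity trend and no block, giving 4 residual and 3.67 prior degrees of freedom. Tests were two-sided moderated tests of the contrast, with Benjamini-Hochberg adjustment over all 12661 genes and calls below 0.05. All values after ± are SEs of that fit. The fit was also run on simulated data that gave each gene 1 spread in all groups. That run does not bear on the unequal spreads of the groups here.

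Named were the 15 largest differences in each direction among calls whose 4 pairwise sunitinib minus vehicle differences did not overlap between tissues, leaving out predicted and clone names, every target kinase, and up to 5 members of each of 37 lists (659 genes, 547 tested) by p, with values of fat-list members below the filter. Genes outside this rule are Cdh5, Tie1, Pecam1, Fasn, Scd1, Scd2, Me1, Srebf1, Mlxipl, Dgat1, Ucp1, Cidea, Adipoq, Pparg, Lep, Vegfa, Myh11, Cnn1, Plvap, Pgf, Unc5b, Spp1, Trem2, Ckm, Krt18 and Crisp1, given as values of list members, and S1pr1, Car4, Sema3g, Tgfb1, Cdkn1a and the genes of the closing observations, chosen after their values were seen. The members and lists were chosen with earlier results of these data known, and no set test was made. A few genes that the rule names are not reported here.

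Replicate deviations of BAT and eWAT libraries with the same number correlated at 0.06 for sunitinib and 0.04 for vehicle, so the numbers were not taken to pair the libraries. Within a tissue, the deviations of sunitinib and vehicle libraries correlated at −0.28 in BAT and 0.08 in eWAT, and the cause of the BAT value was not tested. Alternatives were other filters, normalizations, variance models and replicate blocks, a fit over 16 libraries and leaving out each library, where the lone library of a group was assumed to vary like the others. Promoter windows came from RefSeq GRCm38.p6 and no coordinates of the deposited tables were used.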

Additional observations from a re-analysis of the deposited data

Results flagged for a closer look

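The sunitinib effect differed between the 2 tissues for 379 genes with a higher and 82 with a lower value in BAT than in eWAT, by limma's test of the difference itself. Among the genes named for size, the following also had both sunitinib libraries on one side of both vehicle libraries in BAT and on the other side in eWAT. The effect was higher in BAT for Cd93 with a difference of 1.52, Pde2a with 1.41, Btnl9 with 1.31, Irf8 with 1.29 and Slc15a3 with 1.26. It was lower in BAT for Acaca with −1.39, Acsm3 with −1.03, Gsta3 with −1.004, Spock2 with −0.95, Chdh with −0.94, Erbb3 with −0.94, Mgat3 with −0.91, Hook1 with −0.91 and Pde1a with −0.83. For Slc15a3, Erbb3 and Mgat3 the smaller of the 2 effects was under 0.1, so the opposite order there rests on small distances between libraries. The fit over 16 libraries ended the calls of Irf8, Slc15a3, Acsm3, Gsta3, Chdh, Erbb3, Hook1 and Pde1a.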

How the results depend on the processing

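All 461 differences kept their sign under every alternative in which they were tested, but the number of calls moved. The order below is higher and lower differences. Calls numbered 429 and 142 with quantile normalization, 526 and 166 with a robust fit, 77 and 6 in a fit over 16 libraries (with 0 and 1 for BAT and 46 and 263 for eWAT alone), and, added after seeing the data, 219 and 80 with a mean of at least 8 in both tables. That filter tested fewer genes and gave 119 and 82 calls for BAT alone and 97 and 311 for eWAT alone. With the replicate block within treatment across tissues there were 121 and 18 calls (eWAT alone 149 and 515), with the block by number 241 and 46, and with numbers crossed in brown fat, added after seeing the data, 276 and 96. Leaving out 1 library gave 78 to 423 higher and 2 to 291 lower calls, 0 to 71 and 0 to 243 for BAT alone, and 60 to 292 and 314 to 844 for eWAT alone. Higher calls were 82.2% of all, 59.2% without BAT vehicle library 1 and 97.5% without BAT sunitinib library 1. Leaving out vehicle library 2 of both tissues, added after seeing the data, gave 44 and 11 calls (BAT alone 2 and 4, eWAT alone 108 and 341). The muscle genes Myh1 and Myh2 had differences of −0.55 and −0.81, of 1.16 and 1.13 without BAT vehicle library 2, and of −2.27 and −2.74 without BAT vehicle library 1. The cause of these shifts was not tested. No scaling moved the median of all genes by over 0.1.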

Other observations

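Most calls rested on eWAT, but 47 of the 379 and 25 of the 82 genes had the larger effect in BAT. Among those 25, chosen after their values were seen, were genes of coenzyme A, glycogen and energy sensing. Pank3, a pantothenate kinase of coenzyme A synthesis, had 9.26 and 9.50 in the BAT sunitinib libraries against 10.13 and 10.07 in the BAT vehicle libraries, and 12.58 and 12.65 in the eWAT sunitinib libraries against 12.55 and 12.45 in the eWAT vehicle libraries. Both BAT sunitinib libraries were below both vehicle libraries and the difference was −0.83 ± 0.13 (adjusted p = 0.0162). Gbe1, the glycogen branching enzyme, differed by −0.73 ± 0.15 (adjusted p = 0.0405), Phkb, a subunit of phosphorylase kinase, by −0.68 ± 0.13 (adjusted p = 0.0348), and Prkaa2, the alpha-2 subunit of the kinase AMPK, by −0.82 ± 0.16 (adjusted p = 0.0399). Their BAT effects were −0.37, −0.51 and −0.56 beside eWAT effects of 0.36, 0.16 and 0.26, and none passed for BAT alone. For Gbe1 the 2 effects were thus of near-equal size, each with an SE of 0.10. Among the 47, chosen in the same way, were Crip2, a LIM-domain protein, with a BAT effect of 0.56 and a difference of 0.69 ± 0.10 (adjusted p = 0.0153), and Acvrl1, the endothelial receptor ALK1, with 0.39 and 0.51 ± 0.10 (adjusted p = 0.0405).

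Npr3, the clearance receptor for natriuretic peptides, had 9.93 and 9.67 in the BAT sunitinib libraries against 10.71 and 11.02 in the BAT vehicle libraries, and 14.65 and 14.68 in the eWAT sunitinib libraries against 15.02 and 14.84 in the eWAT vehicle libraries. Its BAT effect was −1.06 and its difference −0.80 ± 0.18 (adjusted p = 0.0557) did not pass.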
